A study of Melianthus elongatus with 11 samples.

Results

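The contigs described here are transcripts of Melianthus minor (also called M. elongatus) that resemble the Arabidopsis ferric reductases (FRO1 AT1G01590, FRO2 AT1G01580, FRO3 AT1G23020, FRO4 AT5G23980, FRO5 AT5G23990, FRO6 AT5G49730, FRO7 AT5G49740 and FRO8 AT5G50160) and the iron transporters IRT1 (AT4G19690) and IRT3 (AT1G60960). They were chosen by their closest Arabidopsis locus in the authors' table, and those over a limit on low values are described in full. Of 68651 contigs in the table, 30 had one of these 10 loci as the closest match, and 14 of the 30 had a value of 10 or more in at least 2 of the 11 libraries. Those 14 were among 26053 contigs of the whole table that passed the same limit. The loci with a contig numbered 8, those with a contig over the limit numbered 5, and FRO1 and FRO3 were the closest match of none.

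Melianthus flowers make a black nectar that the series title likens to iron-gall ink, a dark writing ink made from iron salts and plant tannins. Leaves and nectaries were collected outdoors from garden plants into a solution that preserves RNA, and RNA was sequenced from 11 libraries. Each library carries a code, with 2 libraries of code 0 and 3 each of codes 1, 2 and L, but the labels do not say what a code stands for. The filed labels cross the codes: libraries 0-A, 0-B and 1-A were filed as mature leaf, 1-B and 1-C as presecretory nectary, the code 2 libraries as secretory nectary and the code L libraries as postsecretory nectary. The title of 2-A says presecretory while its stage says secretory. Groups here are the codes, read without a tissue or stage. No treatment, genotype or plant age was given. Whether libraries of a code came from different plants is not stated, and p-values reflect library-to-library spread alone, which may be technical.

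Plants such as Arabidopsis take up iron by reduction. A ferric reductase of the FRO family, a membrane protein that passes electrons outward, turns ferric iron into the soluble ferrous form, and a ZIP family transporter such as IRT1 carries it into the cell. FRO2 does this with IRT1 at the root surface, FRO4 and FRO5 reduce copper there, FRO6 acts at the plasma membrane of shoot cells, FRO7 serves the chloroplast, and FRO3 and FRO8 are placed in mitochondria. IRT3 moves zinc and iron across the plasma membrane.

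The values are normalised read counts as the authors deposited them, and their sums per library ran from 631454 to 1168305, with the 3 code L libraries lowest. The depth in reads is unknown, and division by transcript length is not stated, so levels of contigs are not ranked. Locus sums and shares of a sum, given later, rest on that unknown scaling. Pearson's r of log2 values within a code was 0.945 for code 0, 0.930 to 0.967 for code 1, 0.767 to 0.878 for code 2 and 0.904 to 0.922 for code L. All 6 leaf mesophyll marker loci had contigs, and their summed values ran from 24595 to 42859 in code L and from 1048 to 2003 in the other codes. Of 6 nectary marker loci 5 had contigs (BOP1 had none), and their sums ran from 1593 to 9915 in codes 0, 1 and 2 and from 24.4 to 106 in code L. Of 4 pollen and tapetum loci 2 had contigs (AGP11 and A9 had none), with sums of 51.7 to 227 in codes 0, 1 and 2 and 13.6 to 19.6 in code L. These marker sums go against the filed labels of 0-A, 0-B and 1-A as leaf and of code L as nectary, but single nectary markers differed. The sugar exporter SWEET9, a defining nectary marker, stood at 1.07 and 2.86 in code 0 and at 2037 to 5292 in codes 1 and 2. The nectary marker MYB21 was likewise lower in both code 0 libraries than in any library of codes 1 and 2. The nectary factor CRC had the opposite order, at 1041 and 1351 in code 0 and 62.0 to 498 in codes 1 and 2. The cell wall invertase CWINV4 was also highest in code 0, at 58.2 and 38.3. In code L CWINV4 stood at 15.5, 23.5 and 15.9, above every library of codes 1 and 2, unlike the nectary sum. In such bulk samples, fewer cells of a type and less RNA per cell cannot be told apart.

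By locus, FRO7 had 11 contigs (6 over the limit), IRT3 had 6 (3 over it), FRO2 had 5 (2), FRO8 had 3 (1), FRO4 had 2 (2), and FRO5, FRO6 and IRT1 had 1 each, under the limit. How the authors' counting divided reads among contigs of 1 locus is uncertain, since such contigs may share sequence. Just inside the limit was the FRO7-like Mm25786, with a second-highest value of 12.7. Just outside was the only FRO6-like contig, Mm229676, with 1.64 and 12.2 in code 0, 1.55, 5.63 and 1.46 in code 1, 0.552, 0.807 and 0 in code 2 and 0, 5.64 and 9.18 in code L. Its values over 5 were in 1 library each of codes 0 and 1 and in 2 of code L, and code 2 alone lay below both code 0 libraries. The only IRT1-like contig, Mm198058, had 0.797 and 0 in code 0, 0.441, 1.30 and 1.40 in code 1, 1.46, 5.14 and 0.500 in code 2 and 0.206, 2.39 and 9.81 in code L, so the root importer's match was under 10 in every library, with its highest value in library L-C. The only FRO5-like contig, Mm218214, was listed at 0 in both code 0 libraries and reached 6.08 in library 2-B. Of the 16 contigs under the limit, 9 had no value of 5 or more, and the highest value of any was 12.2. At 10 or more only in libraries of 1 code were 4 of the 14 kept contigs (3 in code L and 1 in code 0). Those 4 passed only through the code where they were high, so counts and medians over the 14 contigs describe them and support nothing further, and p-values given for those 4 come from a fit of all 68651 contigs with no limit.

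**Figure D1:**
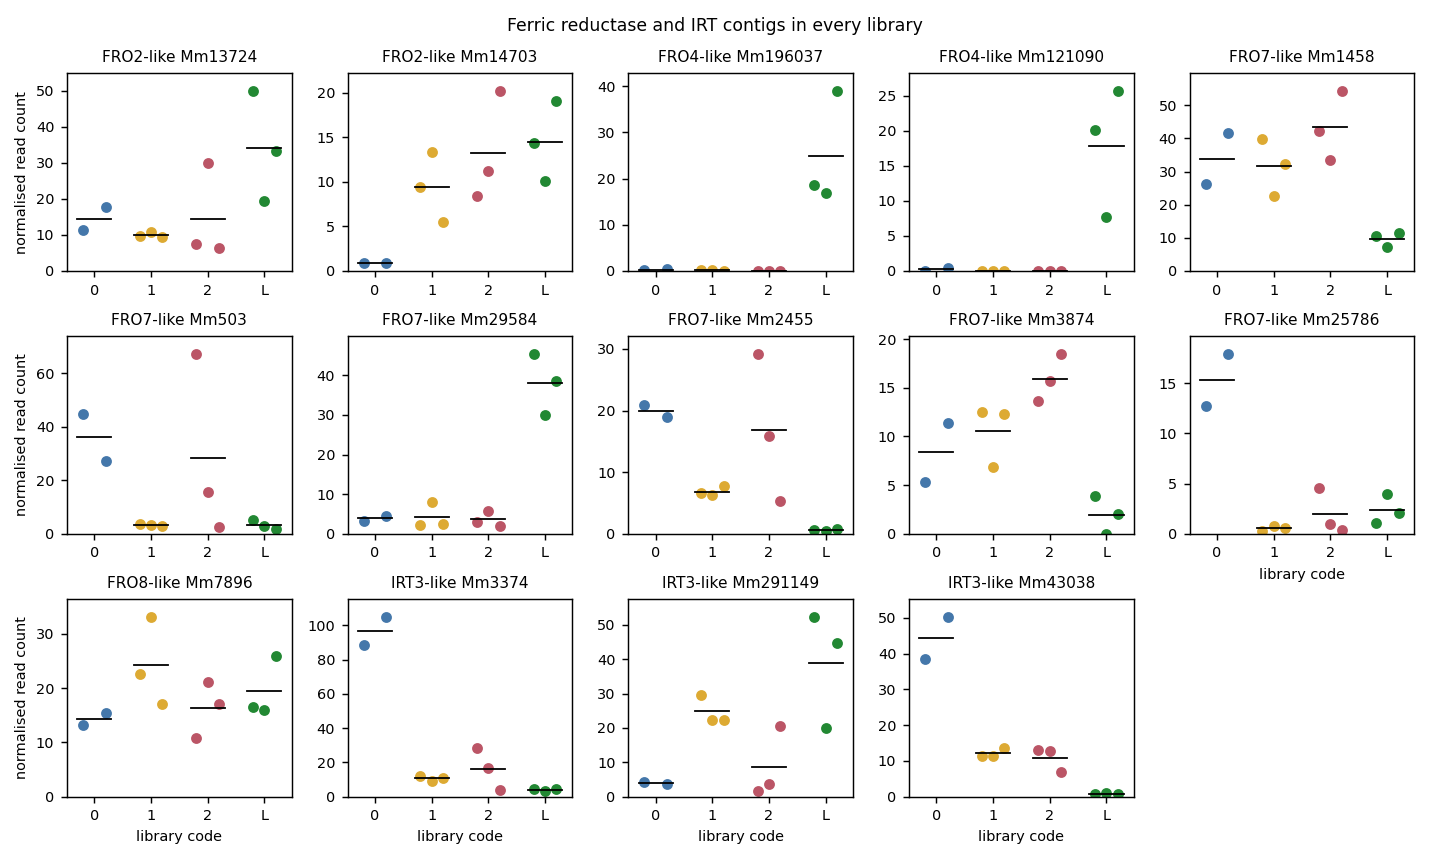
Normalised read count (linear axis from 0, scaled per panel) of the 14 kept contigs by library code. Points are libraries (2 of code 0, 3 each of codes 1, 2 and L) and black lines are code means. Both FRO4-like contigs and the FRO7-like Mm29584 are high in code L, and the IRT3-like Mm3374 and Mm43038 are high in code 0.

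A contig was called when its limma adjusted p was under 0.05 and its log2 difference at least 1 in size, and 13 of the 14 kept contigs were called in at least 1 of the 6 comparisons between codes, beside 86.8% of all kept contigs. By code means, the FRO4-like and FRO2-like contigs, the FRO7-like Mm29584 and the IRT3-like Mm291149 were highest in code L. The IRT3-like Mm3374 and Mm43038 and the FRO7-like Mm25786, Mm503 and Mm2455 were highest in code 0. The FRO7-like Mm1458 and Mm3874 were highest in code 2 and the FRO8-like Mm7896 in code 1. The FRO4-like contigs, Mm29584 and Mm25786 passed the limit only through their highest code. Code 1 against code 0 gave 2 higher and 4 lower, while 13.6% of all kept contigs were higher and 12.2% lower. The medians were -0.23 for the 14 and 0.10 for all contigs. Code 2 against code 0 gave 1 higher and 3 lower, beside 11.5% and 12.5% of all contigs, with medians of -0.27 and 0.05. Code 2 against code 1 gave 0 of 14 by limma, with 2 at an unadjusted p under 0.05, beside 0.184% of all contigs higher and 0.983% lower, and the medians were 0.19 and -0.02. Without library 2-C, 3 of the 14 were called, and the share of all contigs called in either direction rose to 5.68% from 1.17%. In an alternative grouping by filed tissue and stage, leaf took the place of code 0 and presecretory nectary that of code 1. Secretory nectary took the place of code 2 and postsecretory nectary that of code L. Limma then called 0 of the 14 for presecretory and for secretory against leaf, with 1 and 3 at an unadjusted p under 0.05. Against filed postsecretory nectary, filed leaf gave 5 higher and 4 lower of the 14, presecretory 4 and 4, and secretory 4 and 5. Of all 26053 contigs, 12763 were higher and 3081 lower for leaf, 12859 and 3238 for presecretory, and 12933 and 3621 for secretory.

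Against code L, the whole table was shifted, with a median log2 difference over all contigs of 1.08 for code 0, 1.21 for code 1 and 1.18 for code 2. Code 0 gave 7 higher and 5 lower of the 14, beside 49.4% and 13.3% of all contigs, code 1 gave 4 and 4 beside 54.4% and 14.4%, and code 2 gave 6 and 5 beside 52.4% and 15.1%. The member medians were 0.65, -0.20 and -0.21. Scaling by median ratios, which moved the all-contig medians to between -0.01 and 0.11, gave 4248 higher and 6668 lower of all contigs for code 0 (12875 and 3478 as deposited), 5679 and 7092 for code 1 (14169 and 3743), and 6023 and 7146 for code 2 (13652 and 3926). Of the members that passed the limit under that scaling, 15 in number, 3 were higher and 7 lower in code 0, 2 and 6 in code 1, and 4 and 7 in code 2, so lower calls outnumbered higher ones in each. The 6 comparisons share libraries and are not independent of each other.

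**Figure D2:**
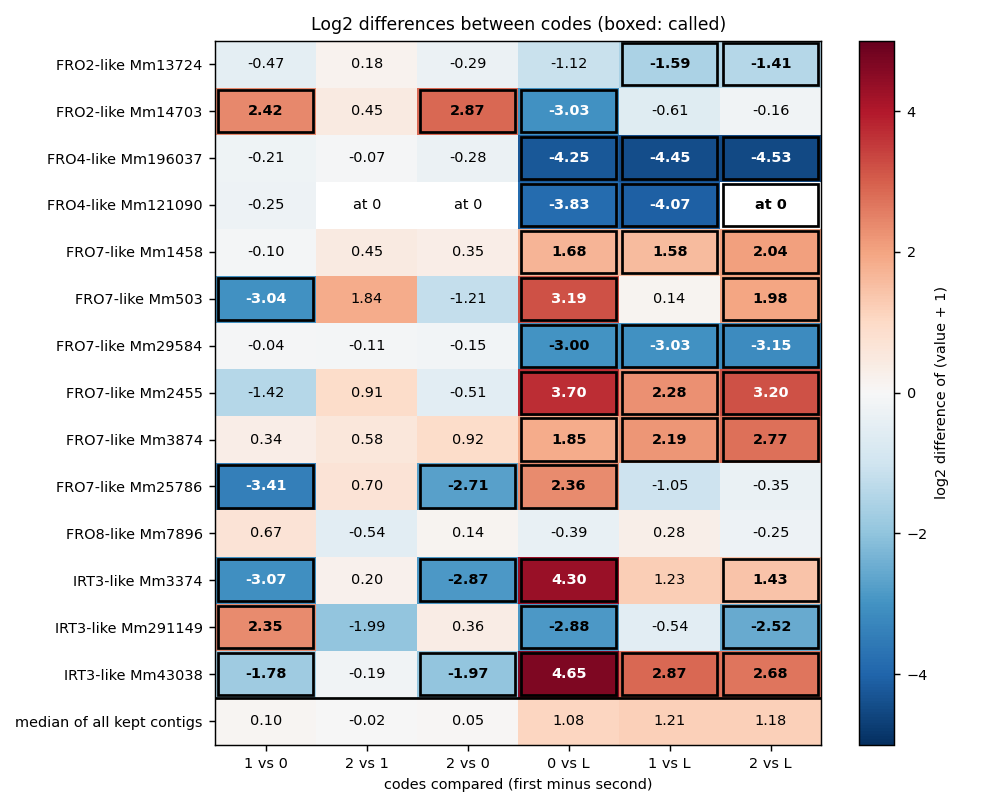
Log2 difference of (value + 1) for the 14 kept contigs in the 6 comparisons between codes, first code minus second, with the median over all 26053 kept contigs in the bottom row. Boxed cells in bold passed the limma test (adjusted p under 0.05 and an absolute difference of at least 1), and "at 0" marks a code with every library listed at 0. In code 2 against code 1 no cell is boxed.

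The 2 FRO2-like contigs did not follow each other. Mm14703 was at 0.855 and 0.838 in code 0, 9.47, 13.3 and 5.45 in code 1, 8.47, 11.2 and 20.2 in code 2 and 14.4, 10.1 and 19.1 in code L. It was under 1 in both code 0 libraries and over 5 in every other library, so code 0 overlapped with no other code. Its log2 difference was 2.42 (SE 0.44) in code 1 against code 0 and 2.87 (SE 0.44) in code 2 against code 0, with limma adjusted p of 0.00201 and 7.95e-04. On the linear scale its code 1 mean was 11.1 times and its code 2 mean 15.7 times the code 0 mean. Code L was also higher than code 0 (log2 difference of code 0 against L -3.03, SE 0.44, limma adjusted p 1.91e-04), while codes 1, 2 and L overlapped and did not pass the test against each other. The second contig, Mm13724, was at 11.2 and 17.6 in code 0, 9.66, 10.7 and 9.41 in code 1, 7.41, 29.8 and 6.25 in code 2 and 49.8, 19.5 and 33.2 in code L. It was highest in code L, but library 2-B at 29.8 lay inside the range of code L. Codes 1 and 2 were lower than code L, with log2 differences of -1.59 (SE 0.51, limma adjusted p 0.0147) and -1.41 (SE 0.51, limma adjusted p 0.0264). Without library L-A the code 1 difference was -1.28 (adjusted p 0.0649), and the code 2 call was lost without 2-A, 2-C, L-A or L-C (-1.14, -1.03, -1.10 and -1.39, adjusted p 0.0628 to 0.107). Code 0 against L was -1.12 and was not called (limma unadjusted p 0.0751), but it was called without 2-B (adjusted p 0.0216), with equal column totals (-1.56, adjusted p 0.0344) and under median-ratio scaling (-2.16, adjusted p 0.00798).

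Both FRO4-like contigs, whose Arabidopsis counterpart is a copper reductase of the root surface, were high in code L and at or near 0 elsewhere. Mm196037 was at 0.130 and 0.426 in code 0, 0.169, 0.140 and 0 in code 1, 0, 0.0850 and 0.0530 in code 2 and 18.7, 16.8 and 38.9 in code L. Mm121090 was at 0 and 0.438 in code 0, 0, 0 and 0.0340 in code 1, 0, 0 and 0 in code 2 and 20.2, 7.73 and 25.7 in code L. Every code L library was above every other library for both, and both passed the limit only through code L, so that they had to differ there. The differences for Mm196037 were -4.25, -4.45 and -4.53 on the log2 scale for codes 0, 1 and 2 against L (limma adjusted p with no limit 1.49e-05, 2.95e-06 and 2.43e-06). For Mm121090 they were -3.83 and -4.07 for codes 0 and 1 (limma adjusted p with no limit 7.46e-05 and 1.45e-05), and it was listed at 0 in all 3 code 2 libraries. The leaf mesophyll marker sums were high in the same 3 libraries (24595, 29295 and 42859), and their part in this result was not tested.

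FRO7, whose Arabidopsis protein supplies the chloroplast, had 6 kept contigs, and they moved in different directions. Mm1458 was at 26.4 and 41.6 in code 0, 40.0, 22.7 and 32.3 in code 1, 42.1, 33.6 and 54.3 in code 2 and 10.7, 7.25 and 11.5 in code L. Mm3874 was at 5.36 and 11.4 in code 0, 12.5, 6.86 and 12.3 in code 1, 13.6, 15.7 and 18.5 in code 2 and 3.85, 0 and 2.07 in code L. Mm2455 was at 20.9 and 19.0 in code 0, 6.54, 6.25 and 7.71 in code 1, 29.2, 15.9 and 5.27 in code 2 and 0.640, 0.426 and 0.759 in code L. These 3 contigs were lower in code L than in any other code, with no overlap. For codes 0, 1 and 2 against L, the log2 differences of Mm1458 were 1.68, 1.58 and 2.04 (SE 0.29 to 0.33, limma adjusted p 0.00120, 6.16e-04 and 1.15e-04). Those of Mm3874 were 1.85, 2.19 and 2.77 (limma adjusted p 0.0160, 0.00295 and 6.69e-04), and those of Mm2455 were 3.70, 2.28 and 3.20 (limma adjusted p 1.67e-04, 0.00111 and 1.20e-04). Without 0-B the code 0 against L difference of Mm3874 was 1.37 (adjusted p 0.143), and fitted on those codes alone its adjusted p was 0.0638. None of the 3 was called among codes 0, 1 and 2, where the code 1 against 0 difference of Mm1458 was -0.10 (SE 0.33, adjusted p 0.861). That of Mm2455 was -1.42 (SE 0.52, adjusted p 0.0644), with every code 1 library below both of code 0. It was called without 2-A (adjusted p 0.0231), without 2-C (0.00551), with equal column totals (-1.55, adjusted p 0.0351) and fitted on codes 1 and 0 alone (0.00381).

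The FRO7-like Mm29584 showed the opposite order, at 3.34 and 4.37 in code 0, 2.24, 8.13 and 2.51 in code 1, 2.89, 5.86 and 2.07 in code 2 and 45.4, 30.1 and 38.7 in code L. All 3 code L libraries were above every other library, of which the highest was 1-B at 8.13, and the contig passed the limit only through code L. Codes 0, 1 and 2 were lower than L, with log2 differences of -3.00, -3.03 and -3.15 (limma adjusted p with no limit 5.52e-04, 1.68e-04 and 1.26e-04), which on the linear scale put the code L mean at 9.87, 8.86 and 10.5 times the other means. The leaf mesophyll marker sums were high in the same libraries, and their part was not tested here either.

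The remaining 2 FRO7-like contigs were highest in code 0 or in 1 library of code 2. Mm25786 was at 12.7 and 17.9 in code 0, 0.313, 0.741 and 0.528 in code 1, 4.61, 0.959 and 0.353 in code 2 and 1.03, 3.97 and 2.05 in code L. Both code 0 libraries were above every other library, and the log2 difference was -3.41 for code 1 and -2.71 for code 2 against code 0 (limma adjusted p with no limit 0.00160 and 0.00686) and 2.36 for code 0 against L (0.00565). It passed the limit only through these 2 libraries, and leaving out either took it under. Fitted on codes 2 and 0 alone, the code 2 difference had an adjusted p of 0.0543. Mm503 was at 44.9 and 27.3 in code 0, 3.75, 3.43 and 2.96 in code 1, 67.1, 15.5 and 2.39 in code 2 and 5.20, 2.85 and 1.60 in code L. Library 2-A was the highest of all and 2-C lay below every code 1 library, so code 2 overlapped with every other code. Code 1 was lower than code 0 (log2 difference -3.04, SE 0.93, limma adjusted p 0.0307), without overlap, but the call was lost on leaving out any 1 library of code 0 or code 1 (adjusted p 0.0650 to 0.191). Code 0 was higher than L by 3.19 (SE 0.93, limma adjusted p 0.0106; 2.84 and adjusted p 0.0727 without 0-A, and 2.26 and adjusted p 0.0804 under median-ratio scaling). The code 2 against L difference of 1.98 (limma adjusted p 0.0489) held under 2 of 18 alternatives and fell to 0.92 without 2-A. In code 2 against 1 its difference was 1.84 (adjusted p 0.389), which without 2-C was 2.94 (adjusted p 0.0156).

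The only kept FRO8-like contig, Mm7896, was at 13.2 and 15.5 in code 0, 22.6, 33.1 and 17.0 in code 1, 10.8, 21.2 and 17.1 in code 2 and 16.5, 16.0 and 26.0 in code L. The codes overlapped except for code 1 over code 0 and code L over code 0. It was called in none of the 6 comparisons, the code 1 against 0 difference being 0.67 (SE 0.36, limma adjusted p 0.190). FRO8 is assigned to mitochondria in Arabidopsis.

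Of the 3 IRT3-like contigs, 2 were highest in code 0. Mm3374 was at 88.5 and 105 in code 0, 12.2, 9.13 and 10.6 in code 1, 28.5, 16.5 and 3.62 in code 2 and 4.54, 3.05 and 4.41 in code L. Mm43038 was at 38.6 and 50.3 in code 0, 11.5, 11.4 and 13.6 in code 1, 12.9, 12.7 and 6.89 in code 2 and 0.669, 0.946 and 0.765 in code L. Both code 0 libraries were above every other library for both contigs. For Mm3374 the log2 difference was -3.07 in code 1 and -2.87 in code 2 against code 0 (SE 0.59, limma adjusted p 0.00311 and 0.00512), and for Mm43038 it was -1.78 and -1.97 (SE 0.31, limma adjusted p 0.00176 and 0.00105). Code 0 was higher than L by 4.30 for Mm3374 and 4.65 for Mm43038 (limma adjusted p 1.53e-04 and 2.78e-06), so the code 0 means were 24.2 and 56.0 times the code L means. Mm43038 was also higher in codes 1 and 2 than in L (2.87 and 2.68, SE 0.28, limma adjusted p 1.02e-05 and 1.42e-05). Mm3374 in code 2 against L was 1.43 (limma adjusted p 0.0299), with overlap. It was 0.86 (adjusted p 0.121) without 2-A or 1.24 (adjusted p 0.0920) without 2-B, and the call was also lost without any 1 code L library (adjusted p 0.0533 to 0.0900). Nor was Mm3374 called there with equal column totals (0.92, adjusted p 0.128) or under median-ratio scaling (0.56, adjusted p 0.373). Its code 2 against 0 difference without 0-B was -2.74 (adjusted p 0.0598). Summed over 5 vascular marker loci, values were 156 and 202 in code 0 and 67.5 to 134 in the other libraries. The sum was thus highest in code 0, like Mm3374 and Mm43038, and the part of these markers was not tested. IRX3 made up 118 and 161 of the code 0 sums, and APL and SEOR1 were also highest there. XCP1 was not, at 13.5 and 15.0 in code 0 and 13.9, 15.6 and 7.31 in code 2. The phloem marker SUC2 was not either, at 1.19 and 1.21 in code 0, at least 5.16 in codes 1 and 2 and 0.444 to 0.577 in code L. Unlike Mm43038, the sums of codes 1 and L lay close, at 93.2 to 97.1 and 67.5 to 94.2. Within code 2, Mm3374 ran from 28.5 in 2-A to 3.62 in 2-C.

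The IRT3-like Mm291149 showed the opposite order, at 4.35 and 3.73 in code 0, 29.7, 22.4 and 22.3 in code 1, 1.59, 3.79 and 20.7 in code 2 and 52.4, 19.9 and 44.7 in code L. It was low in code 0 and in 2-A and 2-B, and higher in code 1, in 2-C and in code L. Code 1 was higher than code 0 by 2.35 (SE 0.72, limma adjusted p 0.0315), without overlap. That call was lost on leaving out any 1 library of either code (2.21 to 2.43, adjusted p 0.0621 to 0.159), and with the letter as a replicate block the difference was 2.03 (adjusted p 0.0541). Code L was higher than code 0 and code 2, with differences of -2.88 and -2.52 (limma adjusted p 0.00473 and 0.00431), the latter with 2-C inside the range of code L. With the filed labels as groups, the difference of filed leaf against filed postsecretory was -2.01 (adjusted p 0.0567). In code 2 against 1 the difference was -1.99 (SE 0.64, adjusted p 0.213), and without 2-C it was -2.86 (adjusted p 0.00642).

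Read against the median shift of the whole table in the comparisons with code L, the FRO4-like contigs and Mm29584 stood 4.08 to 5.70 below it, for each code with a value. They passed the limit only through code L, so their place below it followed at least in part from the limit and supports nothing further. Mm2455, Mm43038 and, in code 0, Mm3374 stood 1.08 to 3.57 above the median shift. Mm1458 stood only 0.38 to 0.86 above it and Mm3874 0.77 to 1.59, and under median-ratio scaling Mm1458 was not called in code 0 (0.67, adjusted p 0.0978) or code 1 (0.56, adjusted p 0.103), nor Mm3874 (1.21, adjusted p 0.177, and 1.53, adjusted p 0.0560). Mm25786 in code 0 was also not called under it (1.52, adjusted p 0.0590), nor was Mm503 (2.26, adjusted p 0.0804). In code 2 against L, Mm503 (1.14, adjusted p 0.279) and Mm3374 (0.56, adjusted p 0.373) were not called under it either.

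**Figure D3:**
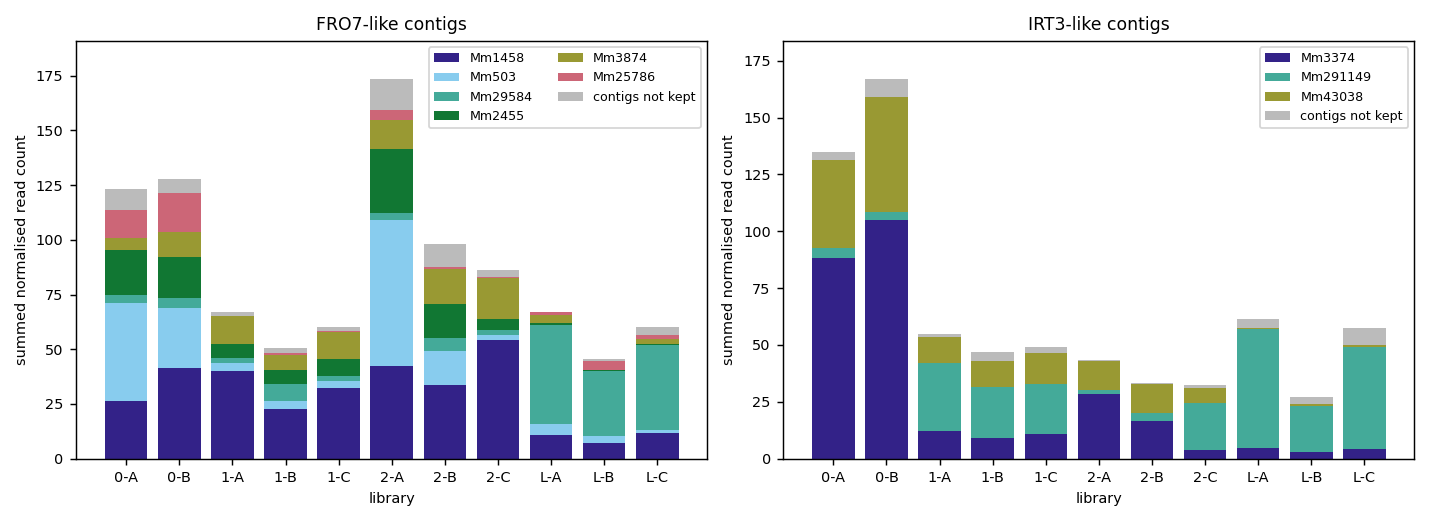
Summed normalised read count (axis from 0) of FRO7-like contigs on the left and IRT3-like contigs on the right in each of the 11 libraries, with colours for the kept contigs and grey for those under the limit. Mm29584 makes up 64.5 to 67.6% of the FRO7 sum in code L, and Mm291149 makes up 73.4 to 85.5% of the IRT3 sum there.

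Contigs of 1 locus made up different shares of the locus sum in different codes. Mm29584 held 64.5 to 67.6% of the FRO7 sum in code L and 1.67 to 16.1% in the other libraries, where Mm1458 held 21.4 to 62.9%. Mm291149 held 73.4 to 85.5% of the IRT3 sum in code L, 45.3 to 54.3% in code 1 and 2.23 to 3.22% in code 0. Within code 2 it held 3.65% in 2-A, 11.3% in 2-B and 63.9% in 2-C. How reads were divided among these contigs could alter such shares and was not tested.

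The locus sums were taken over all contigs, including those under the limit. The FRO7 sums were 123 and 128 in code 0, 66.9, 50.5 and 60.3 in code 1, 174, 97.9 and 86.3 in code 2 and 67.1, 45.3 and 60.0 in code L. The IRT3 sums were 135 and 167 in code 0, 54.6, 46.9 and 49.3 in code 1, 43.5, 33.4 and 32.3 in code 2 and 61.3, 27.1 and 57.6 in code L. Both sums were higher in the code 0 libraries than in any library of code 1 or L. The FRO2 sums were 17.7 and 23.0 in code 0, 29.3, 33.4 and 22.8 in code 1, 25.2, 52.3 and 31.9 in code 2 and 68.4, 32.6 and 60.1 in code L. In a fit of all 12123 loci on summed values, FRO7 was lower in code 1 than in code 0 (-1.08, SE 0.30, limma adjusted p 0.0188), and IRT3 was lower in code 1 (-1.56, SE 0.32, adjusted p 0.00346) and in code 2 (-2.03, SE 0.32, adjusted p 6.76e-04). Code 0 was higher than L for FRO7 (1.13, limma adjusted p 0.00501) and for IRT3 (1.69, adjusted p 6.09e-04), beside a median of 0.98 over all loci, and FRO2 was lower in code 0 than in L (-1.30, adjusted p 0.00655). The FRO4 sum was 24.5 to 64.6 in code L and at most 0.864 elsewhere. The FRO8 sum ran from 13.7 to 39.1 and was called in no comparison.

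Over the 11 libraries, which share the same normalisation and code structure, contigs were compared by Pearson's r of log2(value + 1), as a description. The 2 FRO4-like contigs had r of 0.99, and each had 0.94 or 0.95 with the FRO7-like Mm29584. All of these passed the limit only through code L, so high r among them followed in part from the limit. Mm1458 had 0.94 with Mm3874 and -0.93 with Mm29584. Of the IRT3-like contigs, Mm43038 and Mm3374 had 0.87, while Mm291149 had -0.71 and -0.78 with them. The 2 FRO2-like contigs had 0.17. Among 25903 annotated contigs that are no members, the nearest were sought for the FRO and the IRT contig of the highest mean deposited value, Mm1458 and Mm3374. Those most like Mm1458 were Mm243429 (an EIN3 family transcription factor of ethylene signalling, 0.989), Mm10631 (a peptidase M48 family protein, 0.985), Mm3354 (a Tudor/PWWP/MBT family protein, 0.981), Mm169353 (a RING/FYVE/PHD zinc finger protein, 0.980) and Mm4117 (a pre-mRNA processing ribonucleoprotein, 0.980). Those most like the IRT3-like Mm3374 were Mm28591 (the chaperone calnexin 1, 0.987), Mm1762 (an alpha/beta-hydrolase, 0.987), Mm169 (a chitinase family protein, 0.984), Mm11154 (a myosin heavy chain-related protein, 0.980) and Mm40128 (an AT hook DNA-binding protein, 0.976).

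Other genes of iron and copper uptake were taken from 5 lists, each read against the all-contig percentages above. Of the 16 iron uptake regulators 5 had a kept contig (13 contigs), and the main regulator FIT, a bHLH factor that drives FRO2 and IRT1 in Arabidopsis, had none. In code 1 against 0 there were 1 higher and 2 lower, in code 2 against 0 there were 0 and 2, in code 2 against 1 there were 0 and 0, and for codes 0, 1 and 2 against L there were 3 and 0, 3 and 1, and 4 and 2. The list medians in codes 1 and 2 against 0 were -0.13 and -0.21, and against L 0.51, 0.38 and 0.57. The bHLH factor ILR3 was the closest match of Mm38374, with 24.7 and 27.9 in code 0, 6.17, 3.88 and 7.37 in code 1, 6.80, 5.89 and 7.50 in code 2 and 22.7, 25.3 and 34.2 in code L. It was lower in codes 1 and 2 than in 0 and L without overlap (-2.04 and -1.82 in codes 1 and 2 against 0, limma adjusted p 5.59e-04 and 0.00122, and -2.07 and -1.86 against L, adjusted p 5.53e-05 and 1.05e-04). A second ILR3-like contig, Mm130918, was lower in code 2 than in code 0 (-1.88, adjusted p 0.00156). Another, Mm231673, was listed at 0 in codes 0 and L, in 2-A and in 2-C, at 11.7 in 2-B and at 10.5 to 15.2 in code 1. The ILR3-like Mm4840, Mm5032 and Mm17543 were not called in code 1 or 2 against 0 (limma adjusted p 0.511 to 0.953). In codes 0, 1, 2 and L, the means of Mm4840 were 104, 94.1, 88.5 and 41.2, and those of Mm5032 were 52.3, 60.0, 62.2 and 30.7. The bHLH38-like Mm152637, whose Arabidopsis counterpart is a partner of FIT, was at 13.2 and 19.0 in code 0, 14.6, 8.54 and 14.2 in code 1, 2.98, 18.5 and 7.22 in code 2 and 0.0650, 0.426 and 0.120 in code L, lower in code L than in the others (3.82, 3.46 and 2.85 for codes 0, 1 and 2 against L, adjusted p 2.10e-04, 1.20e-04 and 4.06e-04).

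Of 6 root-type uptake partners 4 had a kept contig (18 contigs, most of them AHA2-like, so counts and medians mainly describe that locus). In code 1 against 0 and in code 2 against 0 there were 6 higher and 2 lower, with medians of 0.82 and 1.06 beside 0.10 and 0.05 for all contigs. All lower and most higher calls were of AHA2-like contigs. The S8H-like Mm17726 was also higher in both (3.53 and 3.47, limma adjusted p 1.51e-04 and 1.97e-04), with means of 0.758 in code 0, 19.3 in code 1 and 19.7 in code 2. Against L, codes 0, 1 and 2 had 12, 10 and 14 higher and none lower, with medians of 1.52, 2.85 and 2.58. The proton pump AHA2, which acidifies the root surface in Arabidopsis, was the closest match of Mm8, which in codes 0 and L was listed at 0 throughout and stood at 113, 130 and 138 in code 1 and 809, 479 and 172 in code 2. Another AHA2-like contig, Mm45126, was lower in code 1 and code 2 than in code 0 (-2.50 and -3.04, limma adjusted p 0.0104 and 0.00404). A further one, Mm42, was higher in code 0 than in L (5.11, adjusted p 2.02e-04).

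Of the 13 other ZIP family loci 5 had a kept contig (10 contigs). Code 1 against 0 gave 1 higher and 4 lower, with a median of -0.65, and code 2 against 0 gave 1 and 6, with a median of -1.62. Against L, codes 0, 1 and 2 gave 5 and 3, 3 and 3, and 2 and 3, with medians of 1.48, 0.34 and -0.01. The zinc transporter ZIP1 was the closest match of Mm108221, with 157 and 133 in code 0, 1.86, 1.53 and 1.41 in code 1, 2.54, 1.84 and 0.324 in code 2 and 0.900, 0.813 and 0.185 in code L. It was high in both code 0 libraries alone (-5.81 in code 1 and -5.94 in code 2, limma adjusted p 1.38e-05 and 1.27e-05; 6.51 in code 0 against L, adjusted p 2.78e-06). The ZIP11-like Mm5256 showed the opposite, under 1 in code 0 and 11.4 to 45.9 elsewhere (3.70 in code 1 and 3.58 in code 2, adjusted p 4.17e-04 and 5.65e-04). Another ZIP11-like contig, Mm9787, was lowest in code L (4.55 for code 1 and 3.99 for code 2 against L, adjusted p 6.84e-05 and 1.51e-04). The ZIP7-like Mm287275 was listed at 0 in codes 0 and 1 and at 7.96, 22.1 and 27.4 in code L, while in code 2 only 2-A, at 19.6, was above 0 (-2.72 against L, adjusted p 0.0262).

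Organelle iron import and copper transport complete the lists. All 5 organelle loci had a kept contig (7 contigs), and of these 0 rose and 1 fell in code 1 against 0 and in code 2 against 0, while against L codes 0, 1 and 2 gave 1 and 1, 2 and 3, and 1 and 2. The list medians were 0.02 and -0.16 against code 0 and 0.14, 0.10 and -0.02 against L. The chloroplast envelope permease PIC1 was the closest match of Mm136269, lower in code 1 (-1.09, limma adjusted p 0.0439) and code 2 (-1.37, adjusted p 0.0179) than in code 0, and lower in both than in L (-1.47 and -1.75, adjusted p 0.00178 and 5.91e-04). The mitochondrial importers MIT1 (Mm12114) and MIT2 (Mm50868) went opposite ways in code 0 against L (1.07 and -1.46, adjusted p 0.0155 and 0.0186), the former beside a median of 1.08 for all contigs. Mm12114 was also higher in code 2 than in L (1.92, adjusted p 1.92e-04), and a contig closest to MFL1 (Mm55058), a mitoferrin-like protein of the chloroplast, was higher in code 1 than in L (1.55, adjusted p 0.00901), while another MFL1-like contig, Mm24585, was lower (-1.15, adjusted p 8.08e-04). Of 5 copper transporter loci 2 had a kept contig (4 contigs), with 1 higher and 1 lower in code 1 against 0, 0 and 1 in code 2 against 0, and 4 and 0, 3 and 1, and 3 and 0 against L. Their medians were 0.39 and -0.04 against code 0 and 2.02, 2.88 and 2.46 against L. COPT5, which exports copper from the vacuole in Arabidopsis, was the closest match of Mm17353, higher in code 1 than in code 0 (1.75, adjusted p 0.0137), and of Mm39408, lowest in code L (2.79, 3.61 and 3.05, adjusted p 0.00165, 1.11e-04 and 3.21e-04). COPT1, a plasma membrane copper importer, was the closest match of Mm30650, lower in code 1 and code 2 than in code 0 (-2.96 and -2.05, adjusted p 6.20e-04 and 0.00616) and lower in code 1 than in L (-1.35, adjusted p 0.00910). In code 2 against 1, limma called 0 of the 52 contigs of the 5 lists, with 5 at an unadjusted p under 0.05.

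**Figure D4:**
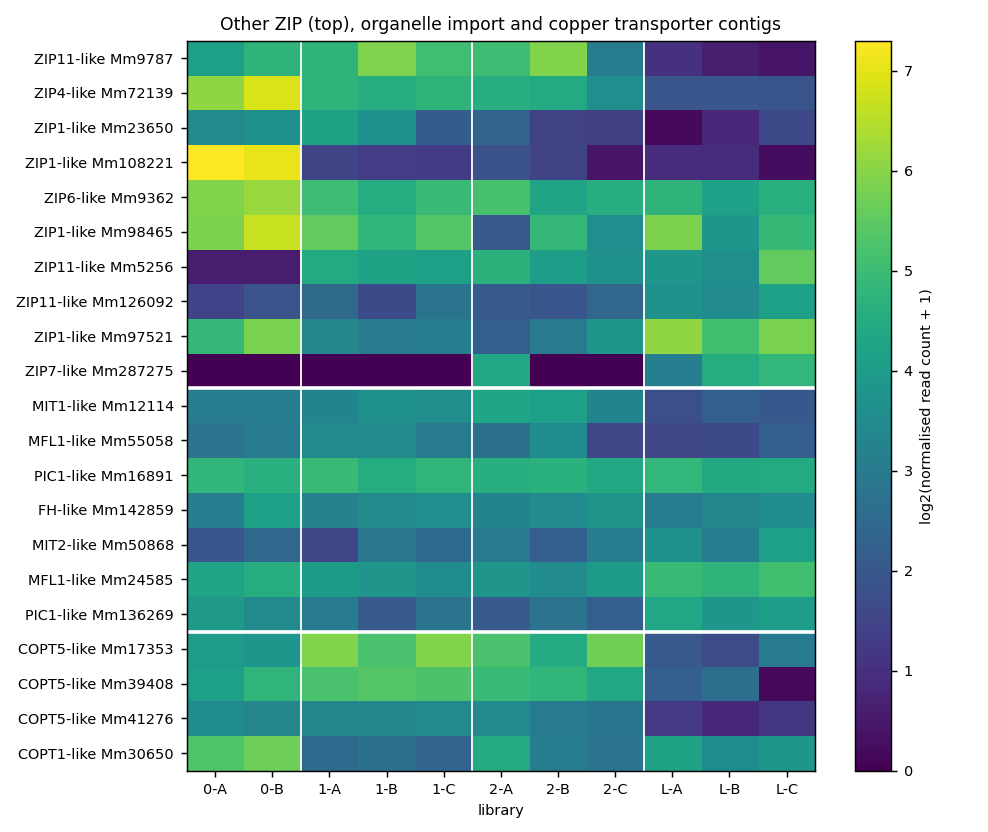
Log2(normalised read count + 1), as colour, of the kept contigs of 3 lists in each of the 11 libraries: other ZIP family, organelle iron import and copper transporters from top to bottom, separated by white lines. The ZIP1-like Mm108221 is high in both code 0 libraries, and the ZIP11-like Mm5256 is low there.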

How the data were processed

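RNA from the 11 libraries was sequenced in paired-end runs on a NovaSeq instrument, per the labels' protocols. Reads were counted with kallisto 0.46.1, a program that divides shared reads among similar transcripts, per the submitters' processing notes. The deposited signal is a normalised read count per contig, per the file headers. Scaling, division by length, assembly and the choice of contigs listed are not given in the sources used here, and depth is unknown, so no interval or floor is given. Value columns matching no library numbered 0.

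Contigs at 10 or more in 2 libraries were tested as log2(value + 1), a scale that understates changes of low contigs, with limma 3.58.1 (R 4.3.3), a trend, 1 mean per code and all 11 libraries. Two-sided p-values were adjusted by Benjamini and Hochberg's method over 26053 contigs. Calls required an adjusted p under 0.05 together with a log2 difference of 1 or more in size. The procedure was tested on simulated data. Tables and figures used Python 3.11.15, pandas 2.3.3 and matplotlib 3.10.9. Values are given for kept members called in any comparison and for each locus's highest kept contig. For lists, the called contig with the largest difference in each direction is named per comparison. Members and lists were chosen with earlier results of these data known. Alternatives were another pseudocount, other limits on low values, other scalings, a replicate block, filed labels as groups, summed loci, separate fits and leaving out each library.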

Additional observations from a re-analysis of the deposited data

How the results depend on the processing

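Of 41 calls over the 14 contigs and 6 comparisons, 20 held under every alternative in which the contig was tested. Another 21 were lost under at least 1 and 0 changed direction. Each call had 16 to 19 alternatives, since summed loci give no contig call and a contig under a limit was not tested. The held calls include those of the FRO4-like contigs and Mm29584 against code L, which passed the limit only through that code. The number of members called depended on the setting as follows, and the numbers of all contigs called moved as well. For code 1 against 0, all contigs gave 1232 higher and 839 lower of 6818 with the limit of 50. Summed loci gave 1313 and 1377 of 12123, beside 3551 and 3183 of 26053 contigs in the main fit. Leaving out 0-A or 0-B, which leaves 1 library of code 0, also lowered the all-contig counts of codes 1 and 2 against 0. Code 1 against 0 (6 called) gave 1 with a limit of 50, at which 1 member was tested, 0 with the filed tissue and stage as groups, 2 of 5 loci with contigs summed and 3 to 7 on leaving out 1 library. Code 2 against 0 (4) gave 1, 0, 1 and 2 to 5 in the same order, 7 with no filter (30 members tested) and 2 fitted on those codes alone. For code 2 against 0, all contigs gave 1094 higher and 860 lower of 6818 with the limit of 50, beside 2990 and 3262 of 26053. Summed loci gave 1151 and 1606 of 12123. With no filter 4712 and 6789 of 68651 contigs were called, and 1911 and 2164 of 26053 on those codes alone. Code 2 against 1 (0) gave 1 of 30 with no filter, beside 96 and 442 of 68651 contigs. It gave 0 to 3 on leaving out 1 library, the 3 being without 2-C, beside 548 and 910 of 25659 contigs. Code 0 against L (12) gave 1 of 1 with the limit of 50 and 4 of 5 with loci summed. Code 1 against L (8) gave 0 of 1 and 1 of 5, and code 2 against L (11) gave 1 of 1 and 1 of 5. On leaving out 1 library, code 2 against L gave 7 to 10. In the same order of codes, all contigs gave 3628 higher and 1275 lower, 4126 and 1239, and 4015 and 1275 of 6818 with the limit of 50. Summed loci gave 5838 and 1598, 6070 and 1672, and 5844 and 1818 of 12123. With the filed labels as groups, limma called 0 of all contigs for filed presecretory and for filed secretory against filed leaf, with 3557 and 5277 at an unadjusted p under 0.05. The uncalled code 1 against 0 difference of Mm1458 (-0.10) ran from -0.42 to 0.22 on leaving out 1 library and changed sign without 0-B (0.22) and without 1-B (0.11). Deviations from code means correlated from -0.126 to 0.236 over 15 same-letter pairs, with 7 under 0.1. Over 30 other pairs they correlated from -0.345 to 0.246, with 26 under 0.1. Deviations within a code sum to 0, so these pairs depend on each other, and those of 0-A and 0-B mirror each other. The contrast between same-letter and other pairs therefore cannot be read as a test of the letter, which the main fit did not use. With the letter as a replicate block, the member counts called were 5, 0, 4, 12, 9 and 11 for code 1 against 0, 2 against 1, 2 against 0 and codes 0, 1 and 2 against L, beside 25.9, 0.956, 24.5, 64.1, 69.3 and 68.2% of all contigs. With 2 or 3 libraries per code and depth unknown, low contigs could be assessed least.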
